A study of Mus musculus with 12 samples.

Results

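The genes described here are 5 blood genes, the alpha-globins Hba-a1 and Hba-a2, the beta-globins Hbb-bs and Hbb-bt, and Alas2, which were chosen by name as a reading of how much blood each tumor library held. All 5 had values, among the 16335 genes of the merged expression table. RNA was sequenced from 12 tumors of BVMA01R, a mouse sarcoma cell line of the genotype Myf5-Cre;p53-/-;Ass1-/-, in female mice of the strain C57BL/6J. The tumors were frozen before RNA was extracted, and ribosomal RNA was depleted from the libraries. Each of the 4 groups had 3 libraries, numbered 1 to 3: ADI-PEG20 plus chloroquine, ADI-PEG20 alone, chloroquine alone, and no treatment (untreated). The genotype was the same in all 4 groups, including the untreated one, and all tumors came from a single cell line. ADI-PEG20 is a pegylated arginine deiminase that degrades arginine outside cells, Ass1 encodes an enzyme that cells use to make arginine, and chloroquine raises the pH of lysosomes and blocks autophagy.

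Hemoglobin is a tetramer of alpha-like and beta-like globin chains, each holding a heme group, and adult mice make it from paired alpha genes and paired beta genes in separate gene clusters. Alas2 encodes the erythroid form of 5-aminolevulinate synthase, the enzyme that starts heme synthesis in developing red cells, whereas Alas1 serves that step in other tissues. Mature mammalian red cells have no nucleus, and reticulocytes still carry globin RNA, so globin reads in a solid tissue commonly come from blood held in its vessels or spilled into it.

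The genes lie on 3 chromosomes in the GENCODE annotation of build GRCm38. Hba-a1 (ENSMUSG00000069919) lies at chr11:32283511-32284465 and Hba-a2 (ENSMUSG00000069917) at chr11:32296489-32297298, both on the plus strand. Hbb-bs (ENSMUSG00000052305) lies at chr7:103826534-103828096 and Hbb-bt (ENSMUSG00000073940) at chr7:103812524-103813996, both on the minus strand. Alas2 (ENSMUSG00000025270) lies at chrX:150547375-150570638 on the plus strand.

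Promoter sequence is shown so that the letters upstream of each gene can be read side by side. Its part in how the globins and Alas2 varied across tumors was not tested. Each window holds the 250 bases before the gene's RefSeq start (build GRCm38.p6), read 5′ to 3′ on the gene's own strand. Capitals mark matches, on either strand, to AGATAA (a form of the site that GATA factors bind), CACCC (bound by KLF factors), CCAAT (bound by NF-Y), or 1 of the TATA-box-like runs ATAAAA and TATAAA. The windows lie at chr11:32283422-32283671 for Hba-a1, chr7:103827929-103828178 for Hbb-bs, chr7:103813924-103814173 for Hbb-bt and chrX:150547167-150547416 for Alas2. The RefSeq starts lie inside the GENCODE spans given above, so each of these windows partly overlaps its gene's span.
Hba-a1: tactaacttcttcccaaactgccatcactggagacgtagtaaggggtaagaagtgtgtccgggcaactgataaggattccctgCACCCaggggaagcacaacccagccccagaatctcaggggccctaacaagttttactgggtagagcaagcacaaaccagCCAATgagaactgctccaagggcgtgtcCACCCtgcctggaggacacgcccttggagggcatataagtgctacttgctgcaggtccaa
Hbb-bs: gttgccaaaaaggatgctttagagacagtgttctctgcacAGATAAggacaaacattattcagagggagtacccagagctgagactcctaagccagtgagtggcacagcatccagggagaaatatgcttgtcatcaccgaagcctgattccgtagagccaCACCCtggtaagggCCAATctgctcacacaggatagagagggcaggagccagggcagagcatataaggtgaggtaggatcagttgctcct
Hbb-bt: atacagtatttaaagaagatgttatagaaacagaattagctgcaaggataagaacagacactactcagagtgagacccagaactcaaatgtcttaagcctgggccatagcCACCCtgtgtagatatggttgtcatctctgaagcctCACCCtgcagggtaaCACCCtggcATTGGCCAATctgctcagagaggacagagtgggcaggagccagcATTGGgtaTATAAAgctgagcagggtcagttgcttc
Alas2: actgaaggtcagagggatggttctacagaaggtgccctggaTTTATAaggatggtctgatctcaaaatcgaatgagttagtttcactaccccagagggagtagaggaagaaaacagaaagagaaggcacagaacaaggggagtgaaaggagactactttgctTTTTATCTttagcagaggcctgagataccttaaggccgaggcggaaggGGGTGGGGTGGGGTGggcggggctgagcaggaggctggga
CACCC had 2 matches in the Hba-a1 window, 1 in that of Hbb-bs, 3 in that of Hbb-bt and 3 in that of Alas2, while 52.0% of the 32851 promoter windows of that length held at least 1. CCAAT was found in the windows of all 4 globins (3 matches for Hbb-bt, 1 each for the others) and not in that of Alas2, and 33.8% of all windows held it. AGATAA was found upstream of Hbb-bs and Alas2 (1 match each) and in 9.99% of all windows. TATAAA was found upstream of Hbb-bt and Alas2 and in 12.4% of all windows. In Alas2 it lay on the opposite strand, 209 to 204 bases before the start. ATAAAA was found upstream of Alas2, where it overlaps the AGATAA match, and in 17.0% of all windows. The Hba-a2 window was 97.6% identical to that of Hba-a1 and held the same matches, 2 of CACCC and 1 of CCAAT. The promoters of the beta pair were less alike, at 69.3% identity. Only these exact letters were searched, so a window without a match can hold a variant of the same site. Unmarked variants include tgataa in the Hba-a1 window and catataa in the Hba-a1 and Hbb-bs windows. A match describes letters in the window and says nothing of binding.

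Copies within each pair are hard to tell apart by short reads. The coding sequences of Hba-a1 and Hba-a2 were identical at 428 of 429 aligned bases, and those of Hbb-bs and Hbb-bt at 443 of 444. Of all 50-base windows in the transcript, 67.5% of those of Hba-a1 were also found in Hba-a2, and 65.8% of those of Hbb-bs in Hbb-bt. Read the other way, 86.9% of the windows of Hba-a2 were found in Hba-a1, and 58.3% of those of Hbb-bt in Hbb-bs. How reads that fit both copies were assigned, or whether they were dropped, is not given in the sources used here. The split within a pair is therefore uncertain. The sums over each pair do not depend on that split if all such reads were kept. If such reads were dropped, the sums, the globin share of reads, the alpha share and the levels per length would be affected. Alas2 shares 311 of its 2403 exon bases with Apex2 on the opposite strand. Whether counting used strand is not given either, so reads of Alas2 and Apex2 over those bases cannot be told apart. Apex2 itself ranged from 29.8 to 38.7 CPM (CPM is the read count scaled to a common library size, as deposited).

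The recovered totals were 15501998 to 28410940 reads per library, and 1 read was worth 0.0320 to 0.0794 CPM. ADI-PEG20 1 and untreated 2 stood apart, since the noncoding RNA Gm26917 took 22.8% of the reads of ADI-PEG20 1 and 16.4% of those of untreated 2, against 5.09% to 9.86% in the other 10 libraries. ADI-PEG20 1 also had 120 genes without a read, against 7 to 43 in the others. The differences between groups are given with and without these 2 libraries. The labels do not say that the libraries of a group came from separate animals, so p-values measure the spread between these libraries. In bulk tumor RNA, fewer red cells and less globin RNA per cell cannot be told apart.

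Globin RNA was scarce and varied widely from tumor to tumor. The 4 globins together made up 0.00123% of the reads in ADI-PEG20 2 and 0.0199% in ADI-PEG20 plus chloroquine 1, with a median of 0.00359% over the 12 libraries. Their summed level was 186, 56.5 and 26.6 CPM in the ADI-PEG20 plus chloroquine libraries, 38.9, 11.2 and 19.9 CPM in the ADI-PEG20 libraries, 43.0, 110 and 18.7 CPM in the chloroquine libraries, and 56.3, 151 and 22.6 CPM in the untreated libraries. The highest sum was 16.6 times the lowest, and 1 library in each group with chloroquine and in the untreated group exceeded 100 CPM. No ADI-PEG20 library did. Those 3 high libraries were ADI-PEG20 plus chloroquine 1, chloroquine 2 and untreated 2.

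Hba-a1, an alpha chain gene, was the most abundant of the 5. It stood at 78.3, 23.4 and 11.2 CPM in the ADI-PEG20 plus chloroquine libraries, 19.7, 5.45 and 9.08 CPM in the ADI-PEG20 libraries, 17.5, 40.5 and 8.59 CPM in the chloroquine libraries, and 20.6, 59.5 and 8.38 CPM in the untreated libraries. These values rested on 131 to 1830 reads per library. The same 3 libraries led, and the groups overlapped.

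Hba-a2, the second alpha chain gene, had a similar pattern at a lower level. It stood at 38.5, 12.3 and 7.62 CPM in the ADI-PEG20 plus chloroquine libraries, 9.97, 2.32 and 4.46 CPM in the ADI-PEG20 libraries, 10.3, 28.1 and 5.85 CPM in the chloroquine libraries, and 13.1, 35.3 and 5.64 CPM in the untreated libraries. The groups overlapped, and ADI-PEG20 2 and ADI-PEG20 3 were the lowest of the 12.

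Hbb-bs encodes the more abundant of the paired adult beta chains here. It stood at 50.7, 13.8 and 5.30 CPM in the ADI-PEG20 plus chloroquine libraries, 5.76, 2.32 and 5.20 CPM in the ADI-PEG20 libraries, 11.4, 29.5 and 2.37 CPM in the chloroquine libraries, and 16.9, 43.9 and 6.79 CPM in the untreated libraries. Every ADI-PEG20 library lay below every untreated library, and the other groups overlapped. Across the 12 libraries its highest level was 21.9 times its lowest, the widest range of the 5 genes.

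Hbb-bt, the other adult beta gene, was the scarcest globin, with 27 to 434 reads. It stood at 18.6, 7.04 and 2.48 CPM in the ADI-PEG20 plus chloroquine libraries, 3.53, 1.13 and 1.20 CPM in the ADI-PEG20 libraries, 3.76, 11.4 and 1.88 CPM in the chloroquine libraries, and 5.77, 12 and 1.82 CPM in the untreated libraries. ADI-PEG20 2 and ADI-PEG20 3 were again the lowest, while ADI-PEG20 1 lay above untreated 3.

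Alas2 varied far less. It stood at 15.7, 11.8 and 7.66 CPM in the ADI-PEG20 plus chloroquine libraries, 7.19, 8.42 and 6.29 CPM in the ADI-PEG20 libraries, 5.85, 11.9 and 6.88 CPM in the chloroquine libraries, and 9.05, 6.60 and 8.58 CPM in the untreated libraries. Its highest level was 2.69 times its lowest, and the groups overlapped. ADI-PEG20 plus chloroquine 1 and chloroquine 2, both rich in globin, were the highest and the second highest for Alas2, whereas untreated 2, also rich in globin, was the third lowest.

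**Figure D1:**
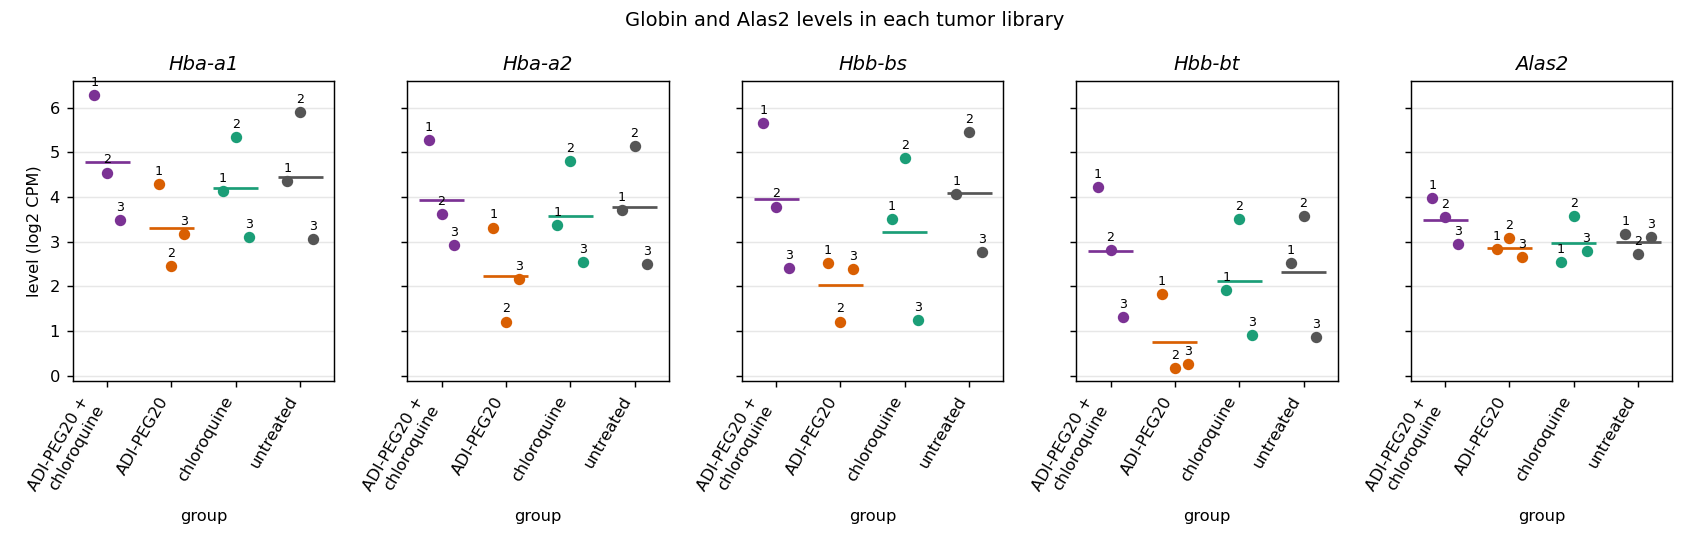
Level of each gene (log2 CPM, vertical axis) in each library (points, numbered by library within its group) for the 4 groups, with a horizontal line at each group's mean. ADI-PEG20 plus chloroquine 1, chloroquine 2 and untreated 2 top their groups for all 4 globins, and Alas2 spans a narrower range (5.85 to 15.7 CPM).

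The spread over the 12 libraries, as an SD of log2 CPM, was 1.20 for Hba-a1, 1.23 for Hba-a2, 1.5 for Hbb-bs and 1.35 for Hbb-bt, against 0.43 for Alas2. Among 5600 genes of like level (mean log2 CPM from 1.5 to 4.5) the median SD was 0.36. Of those genes, 1.95% had a larger SD than Hba-a1, 1.70% than Hba-a2, 0.821% than Hbb-bs and 1.27% than Hbb-bt. For Alas2 that share was 35.3%. Most of the globin spread lay within groups, where the pooled SD was 1.24 for Hba-a1 and 1.45 for Hbb-bs.

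In median level per length, each globin gene stood above Alas2. By the length of one annotated transcript per gene, the median level over the 12 libraries was 26.6 CPM per kb for Hba-a1, 18.3 for Hba-a2, 14.5 for Hbb-bs, 5.19 for Hbb-bt and 3.95 for Alas2. Hba-a1 exceeded Hba-a2 per kb in 12 of 12 libraries, and Hbb-bs exceeded Hbb-bt in 12 of 12. The part of reads that fit both copies in these orders was not tested. The order of Hba-a2 and Hbb-bs, and that of Hbb-bt and Alas2, was not fixed, since the gene named first was higher in 7 of 12 libraries in each case. The mean over libraries was 36 ± 32.7 CPM per kb for Hba-a1 and 4.33 ± 1.44 for Alas2 (SD, n = 12). In ADI-PEG20 2 there was 0.751 CPM of Alas2 for each CPM of globin, and in untreated 2 there was 0.0438, so that the ratio between the 2 readouts was not fixed from tumor to tumor.

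The balance of the chains was steadier than their amount. Alpha reads were 62.8%, 63.1% and 70.8% of globin reads in the ADI-PEG20 plus chloroquine libraries, 76.2%, 69.3% and 68.0% in the ADI-PEG20 libraries, 64.8%, 62.6% and 77.4% in the chloroquine libraries, and 59.8%, 62.9% and 62.0% in the untreated libraries. All ADI-PEG20 libraries lay above all untreated libraries, at 71.2% ± 4.42 and 61.6% ± 1.60 (mean ± SD, n = 3 each), which gave p = 0.10 in a two-sided exact permutation test, the smallest p that 3 against 3 allows. This difference was singled out after its values were seen, so that p followed from the full separation and adds nothing to it. The other groups overlapped with both ADI-PEG20 and untreated libraries. The lowest share, in untreated 1, had a 95% Wilson interval of 57.2% to 62.3%, and the highest, in chloroquine 3, one of 72.9% to 81.3%. These intervals cover counting error at most and treat reads as independent. Reads without molecular identifiers are not independent molecules, so the intervals can be too narrow. Chloroquine 3 also had few globin reads (380), as did ADI-PEG20 1, 2 and 3 (488, 349 and 456) and ADI-PEG20 plus chloroquine 3 (582), all with high alpha shares. Untreated 3 had 353 globin reads and a share of 62.0%, while untreated 1 and 2 had 1408 and 2453 reads. The part of the globin amount in the alpha share was not tested.

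Within the alpha pair the Hba-a1 share of reads ran from 59.1% to 70.2%, with a median of 62.9% over the libraries. It was 67.0%, 65.6% and 59.5% in the ADI-PEG20 plus chloroquine libraries, 66.4%, 70.2% and 67.1% in the ADI-PEG20 libraries, 63.0%, 59.1% and 59.5% in the chloroquine libraries, and 61.2%, 62.8% and 59.8% in the untreated libraries. Within the beta pair the Hbb-bs share was 73.2%, 66.3% and 68.2% in the ADI-PEG20 plus chloroquine libraries, 62.1%, 67.3% and 81.5% in the ADI-PEG20 libraries, 75.3%, 72.2% and 55.8% in the chloroquine libraries, and 74.6%, 78.6% and 79.1% in the untreated libraries. The Hbb-bs share was the more variable, with an SD of 7.53 percentage points against 3.76 for Hba-a1. Its lowest value, in chloroquine 3, rested on 86 beta reads and had an interval of 45.3% to 65.8%.

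**Figure D2:**
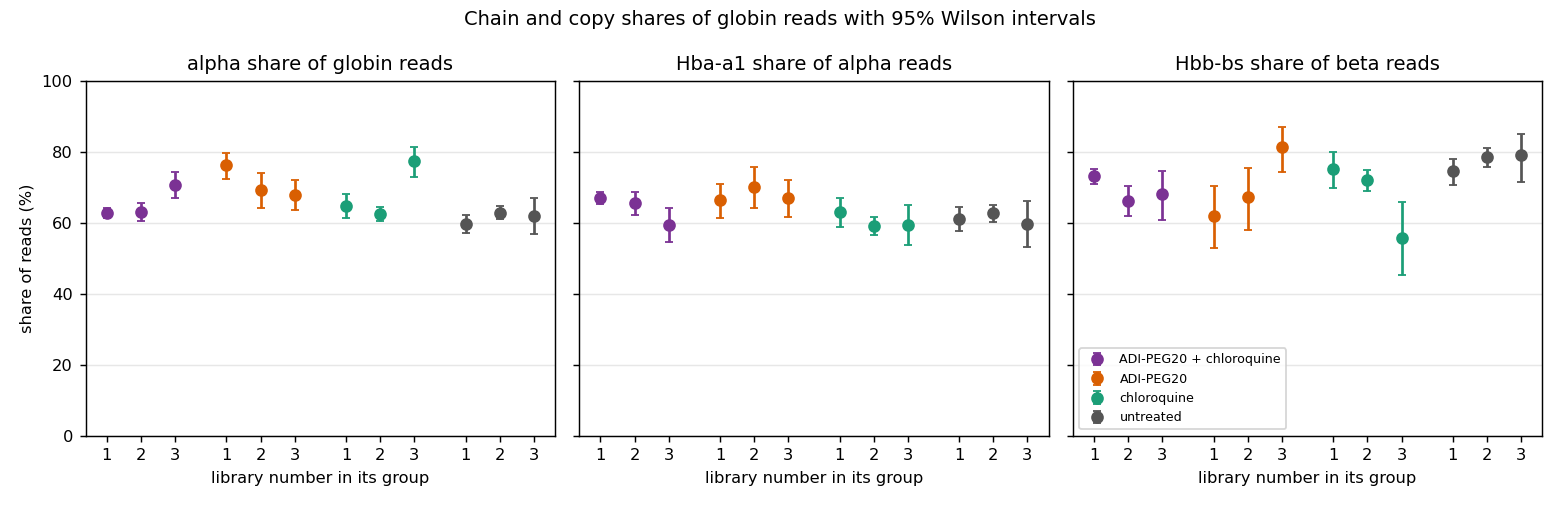
Share of reads (%, vertical axis) in each library (points, horizontal axis). Shares are those of alpha chains among globin reads, Hba-a1 among alpha reads and Hbb-bs among beta reads. Bars are 95% Wilson intervals that treat reads as independent. The alpha share lies between 59.8% and 77.4% in all 12 libraries although summed globin ranged 16.6-fold.

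The first comparison asked whether ADI-PEG20 alone went with a change in blood genes. All 4 globins were lower on average in ADI-PEG20 than in untreated libraries, yet 0 of the 5 genes passed the test. No difference exceeded what the spread between libraries allows after adjustment. By limma, the log2 difference was -1.13 for Hba-a1 (SE 0.798, adjusted p = 0.687), -1.55 for Hba-a2 (SE 0.769, adjusted p = 0.606), -2.06 for Hbb-bs (SE 0.933, adjusted p = 0.597) and -1.57 for Hbb-bt (SE 0.845, adjusted p = 0.620). Alas2 differed by -0.14 (SE 0.313, adjusted p = 0.915). Over all 16335 genes 0.0% were called at an adjusted p under 0.05, and 1357 (8.31%) had an unadjusted p under 0.05. Of the 5 genes only Hbb-bs did, and its groups did not overlap, as was the case, in the lower direction, for 4.54% of all genes. The 95% interval of the log2 difference ran from -4.07 to -0.05 for Hbb-bs and from -2.85 to 0.59 for Hba-a1. Without ADI-PEG20 1 and untreated 2 the log2 differences were -0.90 for Hba-a1, -1.42 for Hba-a2, -1.62 for Hbb-bs, -1.47 for Hbb-bt and -0.28 for Alas2, with 0 of 5 called. With each library left out in turn, the log2 difference ran from -1.82 to -0.41 for Hba-a1, -2.20 to -0.87 for Hba-a2, -2.73 to -1.38 for Hbb-bs, -2.30 to -0.94 for Hbb-bt and -0.28 to -0.04 for Alas2. For each globin the value nearest 0 came without untreated 2 and the one farthest from 0 without untreated 3. The authors' deposited table gave log2 fold changes of -1.20 for Hba-a1, -1.69 for Hba-a2, -1.98 for Hbb-bs, -1.70 for Hbb-bt and -0.18 for Alas2, with adjusted p-values of 0.877 or more.

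Other gene lists also moved between these groups, with 0 genes called by limma in each. In ADI-PEG20 against untreated, all 13 macrophage and monocyte genes, all 11 T cell genes and all 4 B and plasma cell genes were higher on average, with median log2 differences of 0.62, 1.29 and 1.90. All 14 hypoxia response genes were lower on average, with a median of -0.71, beside a median of -1.56 for the 4 globins and -0.01 for all genes. The part of these shifts in the globin values was not tested.

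Chloroquine alone was set against no treatment, with the same untreated libraries as in the first comparison. The 5 genes had small differences with wide intervals, and 0 of 5 were called by limma, as were 0.0% of all genes. The log2 difference was -0.25 for Hba-a1 (95% interval -1.97 to 1.47), -0.21 for Hba-a2 (-1.86 to 1.45), -0.89 for Hbb-bs (-2.90 to 1.13), -0.21 for Hbb-bt (-2.03 to 1.61) and -0.03 for Alas2 (-0.71 to 0.64), each with an adjusted p of 0.999. Of all genes, 555 (3.40%) had an unadjusted p under 0.05, and 0 of these 5 did. The direction depended on single libraries: without ADI-PEG20 1 and untreated 2 the log2 difference was 0.48 for Hba-a1, 0.47 for Hba-a2 and 0.42 for Hbb-bt, while that of Hbb-bs was -0.21 and that of Alas2 -0.17.

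The combination was set against the same untreated libraries. Again 0 of 5 genes were called by limma, beside 0.0% of all genes, of which 1413 (8.65%) had an unadjusted p under 0.05. The log2 difference was 0.33 for Hba-a1 (SE 0.798), 0.16 for Hba-a2 (SE 0.769), -0.15 for Hbb-bs (SE 0.933) and 0.46 for Hbb-bt (SE 0.845), with adjusted p from 0.916 to 0.976. Alas2 had the narrowest interval, with a log2 difference of 0.49 (95% interval -0.18 to 1.17, adjusted p = 0.683), and it was higher in 7 of the 9 pairs of a combination and an untreated library. Without ADI-PEG20 1 and untreated 2 the difference was 1.06 for Hba-a1, 0.83 for Hba-a2, 0.53 for Hbb-bs, 1.09 for Hbb-bt and 0.35 for Alas2, with 0 of 5 called.

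Adding chloroquine to ADI-PEG20 was read from the combination against ADI-PEG20 alone. All 5 genes were higher on average in the combination, in 8 of the 9 pairs of libraries each, and 0 of 5 were called by limma, beside 0.0% of all genes. The log2 difference was 1.47 for Hba-a1 (95% interval -0.26 to 3.19), 1.71 for Hba-a2 (0.05 to 3.37), 1.91 for Hbb-bs (-0.10 to 3.92), 2.03 for Hbb-bt (0.21 to 3.85) and 0.63 for Alas2 (-0.04 to 1.31), and the limma adjusted p was 0.894 for each. An unadjusted p under 0.05 was thus found for 2 of the 5, Hba-a2 and Hbb-bt, against 3.42% of all genes. The 4 globins varied together and the copies within each pair are near-identical, so they do not count as separate readings. Without ADI-PEG20 1 and untreated 2 the log2 differences were 1.96 for Hba-a1, 2.25 for Hba-a2, 2.16 for Hbb-bs, 2.56 for Hbb-bt and 0.63 for Alas2, with 0 of 5 called. With each library left out in turn, the log2 difference ran from 0.71 to 2.11 for Hba-a1, 1.04 to 2.25 for Hba-a2, 1.06 to 2.69 for Hbb-bs, 1.31 to 2.76 for Hbb-bt and 0.39 to 0.91 for Alas2, and the lowest value of each gene came without ADI-PEG20 plus chloroquine 1. The authors' deposited table gave 1.77 for Hba-a1, 2.09 for Hba-a2, 2.04 for Hbb-bs, 2.33 for Hbb-bt and 0.58 for Alas2, with an adjusted p of 0.9996 for each.

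Against chloroquine alone the combination had a log2 difference of 0.58 for Hba-a1 (SE 0.798), 0.36 for Hba-a2 (SE 0.769), 0.74 for Hbb-bs (SE 0.933), 0.67 for Hbb-bt (SE 0.845) and 0.53 for Alas2 (SE 0.313). The limma adjusted p ran from 0.792 to 0.956, and 0 of 5 genes and 0.0% of all genes were called, while 6.78% of all genes had an unadjusted p under 0.05. Without ADI-PEG20 1 and untreated 2 these differences were the same, since neither library enters them, and 0 of 5 were called.

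The interaction, which is the difference between the combination and chloroquine minus that between ADI-PEG20 and untreated, was 1.72 for Hba-a1 (SE 1.13), 1.91 for Hba-a2 (SE 1.09), 2.80 for Hbb-bs (SE 1.32), 2.24 for Hbb-bt (SE 1.19) and 0.67 for Alas2 (SE 0.442) on the log2 scale. The limma adjusted p was 0.825 for each, 0 of 5 genes and 0.0% of all genes were called, and 4.26% of all genes had an unadjusted p under 0.05. The interval for Hbb-bs ran from -0.04 to 5.64. Without ADI-PEG20 1 and untreated 2 the interaction was 1.48 for Hba-a1, 1.78 for Hba-a2, 2.36 for Hbb-bs, 2.14 for Hbb-bt and 0.80 for Alas2.

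**Figure D3:**
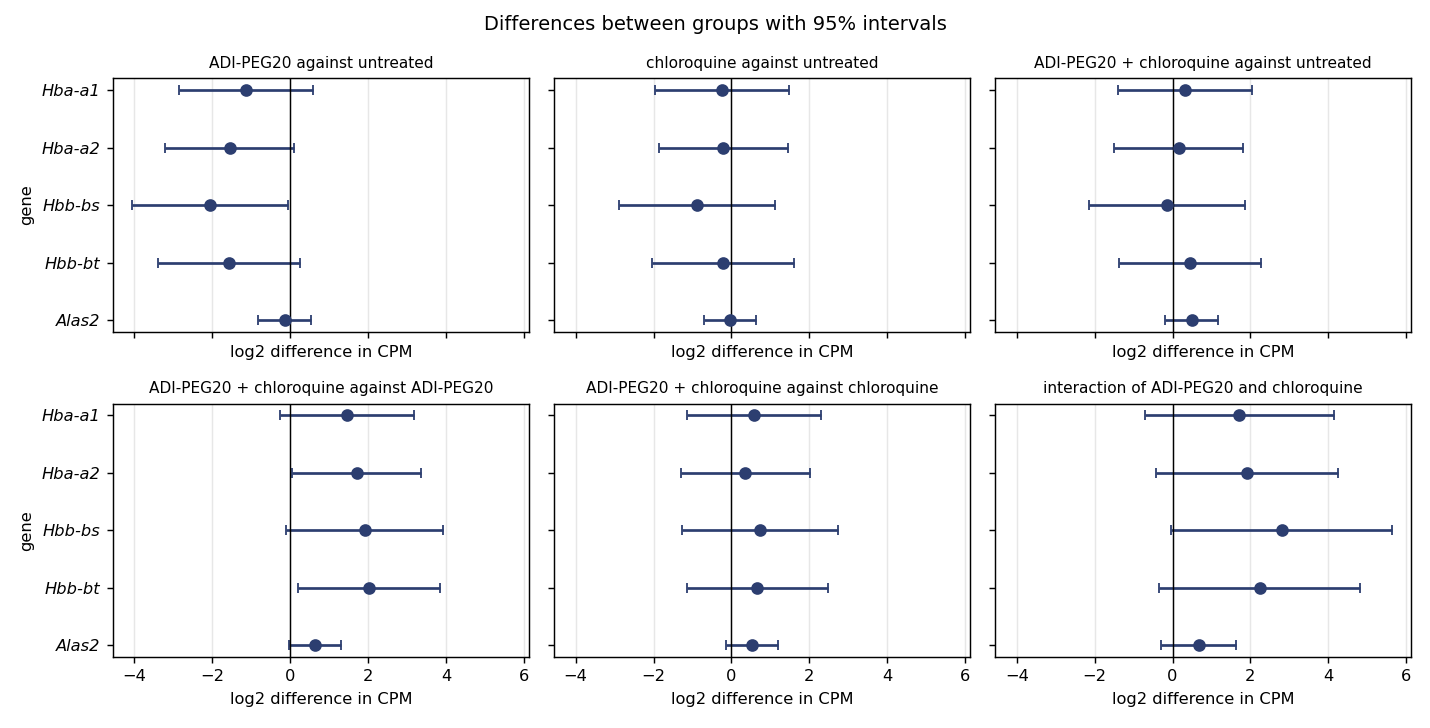
Log2 difference in CPM (horizontal axis, points) with 95% intervals from limma for each gene (vertical axis) in the 6 comparisons, in each of which the group named before "against" is on top of the difference. The intervals of the 4 globins are several log2 units wide (-4.07 to -0.05 for Hbb-bs in ADI-PEG20 against untreated), those of Alas2 are narrower, and 0 of 5 genes passed the adjusted threshold in any panel.

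Across the 12 libraries the globins varied together. The 6 pairs of globins had Pearson r from 0.937 to 0.982 and Spearman rho from 0.909 to 0.993, and each passed a permutation test with adjustment over the 10 pairs of the 5 genes (adjusted p at most 3.3e-05 for r and 0.000217 for rho). Within groups, that is for deviations from the group means, r was 0.933 to 0.992. Without the 2 libraries farthest from the median r was 0.889 to 0.981. The relation held between chromosomes: r was 0.947 between Hba-a1 and Hbb-bs, and the smallest p that the permutations can give, 1e-05, was reached. These genes had 57.8% identical coding bases, and 0% of the 50-base windows of either were found in the other.

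Alas2 followed the globins less closely. Its r was 0.505 with Hba-a1 (adjusted p = 0.103), 0.471 with Hba-a2 (adjusted p = 0.122), 0.511 with Hbb-bs (adjusted p = 0.103) and 0.602 with Hbb-bt (adjusted p = 0.0550) by permutation test over 12 libraries, and 0 of the 4 pairs passed. Spearman rho was 0.392 to 0.462, with adjusted p from 0.190 to 0.208. The value turned on single libraries. Without untreated 2 all 4 pairs passed for r, at 0.723 with Hba-a1, 0.682 with Hba-a2, 0.728 with Hbb-bs and 0.780 with Hbb-bt (permutation test, adjusted p from 0.00684 to 0.0207), while for rho 1 of 4 did (Hbb-bs, 0.691, adjusted p = 0.0326). The r with Hbb-bt also passed without ADI-PEG20 2 (0.663, permutation test, adjusted p = 0.0389) and without chloroquine 1 (0.645, adjusted p = 0.0464). Without ADI-PEG20 plus chloroquine 1 the r with Hba-a1 was 0.225. Untreated 2 is 1 of the 2 libraries rich in Gm26917, and the part of that in its Alas2 level was not tested.

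**Figure D4:**
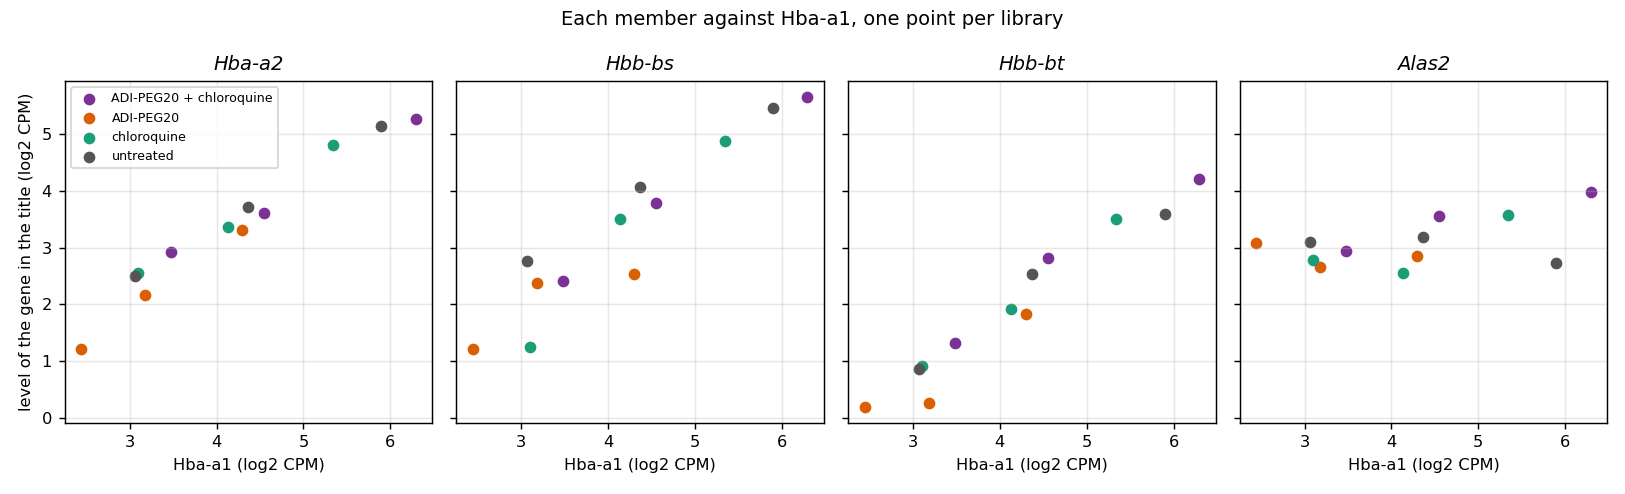
Level of Hba-a2, Hbb-bs, Hbb-bt and Alas2 (log2 CPM, vertical axis) against Hba-a1 (log2 CPM, horizontal axis), 1 point per library, colored by group. The 3 globins lie along a line with Hba-a1 (r of 0.982, 0.947 and 0.975), and Alas2 scatters more (r of 0.505).

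Other red cell genes were read from lists of heme synthesis, red cell membrane, late erythroid, transcription factor and iron uptake genes. Apart from the members, 0 genes of these lists were called by limma in any of the 6 comparisons. Beside the 5 members, the table held the other 8 heme synthesis genes, 14 of 17 red cell membrane genes, 13 of 20 late erythroid symbols, 9 of 12 erythroid transcription factors and 10 of 10 iron uptake and signaling genes. The transcription factors Gata1, Klf1 and Gfi1b, and the 7 embryonic globins, were not found in the table under the symbols searched, so no level can be given for them. One late erythroid gene, Tent5c, was listed under an older symbol as well. Many of the listed genes are also used outside red cells.

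Slc4a1 encodes the anion exchanger of the red cell membrane, band 3. It ranged from 0 to 67 reads, with a median of 0.584 CPM and a highest level of 3.15 CPM in chloroquine 2, and its r with Hba-a1 was 0.696. Gypc, which encodes glycophorin C, ranged from 14.1 to 24.8 CPM, was highest in ADI-PEG20 plus chloroquine 1 and had an r of 0.723 with Hba-a1. These were the 2 highest r among the 14 membrane genes, of which 7 had an r above 0 and 7 below, with a median of 0.02, and the mean of the list had an r of 0.244. Both genes were singled out after their values were seen, the points share libraries and depth, and no p is attached.

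Several heme synthesis genes moved little. Fech, which inserts iron into the ring, ranged from 62.4 to 80.7 CPM, Urod from 14.2 to 22.0 CPM and Alas1, the housekeeping form, from 22.3 to 37.0 CPM. The r with Hba-a1 was 0.243 for Fech, 0.101 for Urod and -0.44 for Alas1. Median differences of the 9-gene heme list were close to 0 in ADI-PEG20 (-0.001 on the log2 scale) and in the combination (0.03) against untreated, beside all-gene medians of -0.01 and 0.01.

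In ADI-PEG20 against untreated, the smallest unadjusted p in the late erythroid list belonged to Tent5c (log2 difference -0.76, SE 0.241), Blvrb, biliverdin reductase B (0.60, SE 0.249), and Bnip3l, a mitophagy receptor (-0.33, SE 0.151), and their limma adjusted p was 0.52 to 0.60. In the iron list they belonged to Tfr2, transferrin receptor 2 (1.46, SE 0.528), Tfrc, the transferrin receptor that takes up iron (-0.82, SE 0.325), and Steap3, a ferrireductase of endosomes (0.66, SE 0.276), with limma adjusted p from 0.52 to 0.57. The erythroid transcription factor partner Lmo2 differed by 0.85 (SE 0.288, adjusted p = 0.52). None of these passed, and the lists held genes of both directions, 7 higher and 6 lower for the late erythroid list and 5 and 5 for the iron list, beside 48.7% of all genes higher.

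In the combination against untreated, the smallest unadjusted p in the membrane list belonged to Tmod1, tropomodulin 1 (log2 difference -1.44, SE 0.530, adjusted p = 0.49), and Dmtn, dematin (-1.10, SE 0.509, adjusted p = 0.58). Tmod1 also led that list in the combination against chloroquine alone (-1.53, SE 0.530, adjusted p = 0.60), by limma in each case. Tropomodulin 1 caps actin filaments in red cells and in striated muscle, and all 14 measured genes of the skeletal muscle list were lower on average in the combination than in untreated libraries. The muscle list summed to 610 to 952 CPM in the combination and 774 to 6163 CPM in untreated libraries, and its part in the Tmod1 and Dmtn values was not tested.

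Lists of other cells were set beside Hba-a1, the most abundant globin gene, over the 12 libraries. Of 20 relations, 18 with list means and 2 with depth and the Gm26917 share, 0 passed a permutation test after adjustment (lowest adjusted p 0.886 for r and 0.662 for rho). The r was 0.416 with the platelet list (adjusted p = 0.886), 0.153 with the endothelial list (adjusted p = 0.924), -0.51 with the T cell list and -0.46 with the B and plasma cell list (adjusted p = 0.886 for both). Among the red cell lists, r was 0.354 for heme synthesis, 0.244 for membrane and 0.00769 for transcription factors. It was -0.27 for the late erythroid list and -0.38 for the iron list. For deviations from group means, r was 0.635 with the platelet list and 0.644 with the heme list. It was then 0.396 for membrane, 0.348 for transcription factors, -0.40 for late erythroid and -0.29 for iron uptake. Without the 2 farthest libraries, r was 0.300 with the platelet list and -0.67 with both lymphocyte lists.

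The platelet list, another list of blood genes, summed to 105 to 129 CPM in the combination and 73.8 to 116 CPM in ADI-PEG20. It summed to 68.1 to 88.8 CPM in chloroquine and 81.4 to 141 CPM in untreated libraries. These sums lean on Itgb3, which averaged 47.3 CPM over the 12 libraries, against 14.2 CPM for Pf4 and 0.665 CPM for Gp9. Against chloroquine alone, all 10 of its measured genes were higher on average in the combination, and 0 passed. In ADI-PEG20 against untreated 7 of the 10 were higher on average (median log2 difference 0.37), beside the median of -1.56 for the 4 globins. Ppbp, a platelet chemokine, had the smallest unadjusted p of the list in the combination against chloroquine, with a log2 difference of 3.22 (SE 0.711, limma adjusted p = 0.49). Endothelial genes summed to 776 to 814 CPM in the combination, 656 to 1069 CPM in ADI-PEG20, 618 to 819 CPM in chloroquine and 594 to 1113 CPM in untreated libraries. They overlapped between all groups.

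**Figure D5:**
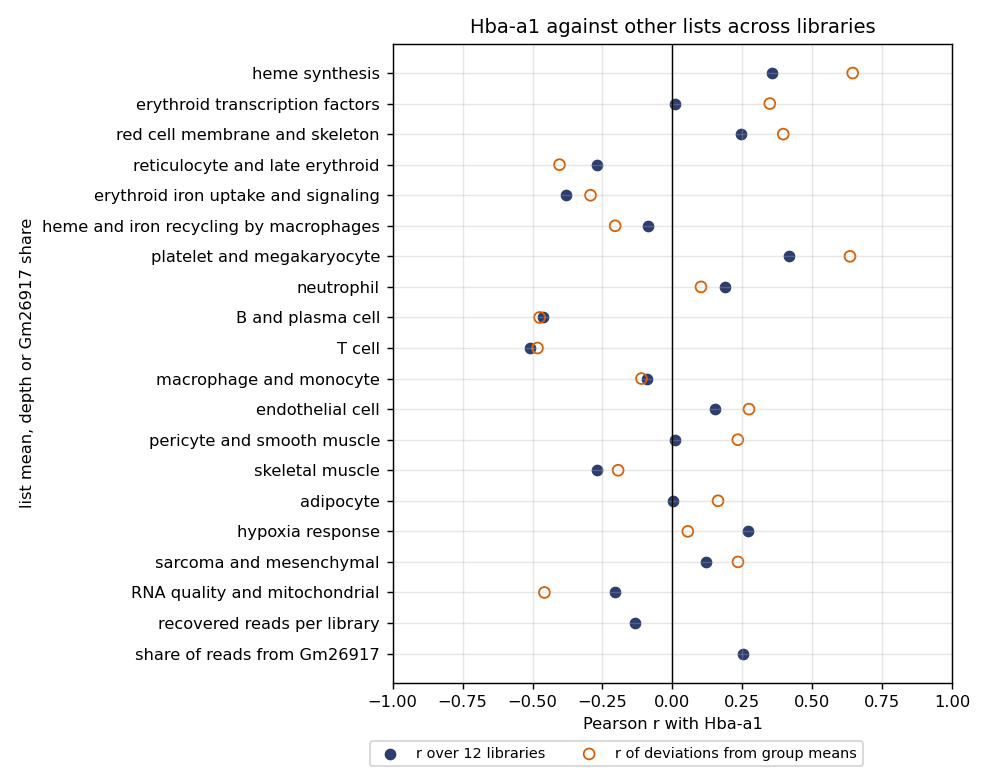
Pearson r (horizontal axis) between Hba-a1 and the mean log2 CPM of each gene list, the reads per library and the share of reads from Gm26917 (vertical axis), over the 12 libraries (filled points) and, for the lists, for deviations from group means (open points). The r over libraries lies between -0.51 (T cell) and 0.416 (platelet), and 0 of 20 relations passed after adjustment.

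The genes outside the members whose pattern was most like that of Hba-a1, by Pearson r over the 12 libraries among 14893 genes with a mean log2 CPM of at least 0, were Hist2h4 (0.861), Camkmt (0.830), Cyp2u1 (0.829), Ska1 (0.818) and Poll (0.808). Gria1 (0.792), F13a1 (0.791), Birc5 (0.787), BC030867 (0.782) and Rdm1 (0.779) came next. F13a1, the A chain of coagulation factor XIII, which macrophages and platelets carry, ranged from 11.5 to 96.0 CPM, and Hist2h4 only from 50.8 to 71.7 CPM. Each of these values was below the r of Hba-a1 with any other globin gene, the lowest of which was 0.947. The points share libraries and depth, and the highest of many values of r are given as a description.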

How the data were processed

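RNA was measured in 12 tumor libraries. The authors deposited log2 CPM per library in 1 merged table, and per the file headers also log2 fold changes, a signed linear fold change (a score), p-values and adjusted p-values per comparison. The deposited set tables hold p-values, a test statistic (a score) and set sizes, and were not used for a result here. The submitters' processing notes name edgeR, limma, the aligner STAR (2.5.1a), the counter featureCounts (1.4.6-p5) of Subread, Salmon (0.8.2), bcl2fastq and the build mm10, with no role or order. The table had 16386 lines for 16335 genes, and the earliest of repeated lines was kept (51 repeats, 1 of them Hbb-bs).

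Reads were recovered from the deposited log2 CPM by taking each value as log2 of reads (with 0.5 added) over a scaled library size, and 100% of values under 2000 reads came within 0.02 of a whole number. Each gene had at least 85 reads over all libraries, so the table's low genes were already gone.

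Differences in the deposited log2 CPM were fitted in R 4.3.3 by limma 3.58.1, with 12 libraries in 1 fit (8 residual degrees of freedom), a trend in expression and no covariate, two-sided, adjusted by Benjamini and Hochberg over 16335 genes at a threshold of 0.05. The procedure was also run on simulated counts with larger changes and a narrower spread than those of the globins. That run therefore does not show how small a globin difference could be called. Correlations were tested with 100000 permutations (scipy 1.17.1), two-sided, and adjusted over their family. Promoters come from RefSeq (GRCm38.p6). The text names the 5 members, called genes of the red cell lists or else those with the smallest unadjusted p, the leading gene of other lists, and the 10 genes most like Hba-a1. Not every gene of that rule is printed. Members and lists were chosen with earlier results of these data known. The labels give no sequencing batch or date. Alternatives were voom weights, library quality weights, only the groups compared, a replicate block, other scalings, another pseudocount, a filter, and each library left out. Voom with quality weights, and the fit without ADI-PEG20 1 and untreated 2, were chosen after seeing the data.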

Additional observations from a re-analysis of the deposited data

How the results depend on the processing

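Across 131 other fits, 0 of 655 values of the 5 genes were called by limma, and the lowest adjusted p was 0.288. Signs of uncalled values turned in chloroquine against untreated: with library quality weights (Hbb-bt 0.32, Hba-a1 0.28, Hba-a2 0.29), with voom and quality weights (0.31, 0.27 and 0.28), without ADI-PEG20 1 and untreated 2 (0.42, 0.48 and 0.47), and for Alas2 with the plain sum of reads (0.0182). In the combination against untreated, Hbb-bs turned to 0.12, 0.16, 0.53 and 0.0186 under the same 4 settings. With the plain sum the median log2 difference of all genes stood at 0.17 there, at 0.17, 0.12 and 0.12 in the combination against ADI-PEG20, against chloroquine and in the interaction, at 0.05 in chloroquine against untreated and at -0.01 in ADI-PEG20 against untreated.

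Leaving out each library gave these ranges. In chloroquine against untreated they were -0.95 to 0.42 for Hbb-bt, -1.72 to 0.10 for Hbb-bs, -0.94 to 0.48 for Hba-a1, -0.85 to 0.47 for Hba-a2 and -0.34 to 0.17 for Alas2. In the combination against untreated they were -0.28 to 1.19 for Hbb-bt, -1.003 to 0.63 for Hbb-bs, -0.43 to 1.06 for Hba-a1 and -0.51 to 0.83 for Hba-a2. In the combination against chloroquine they were -0.0493 to 1.404 for Hbb-bt, -0.24 to 1.57 for Hbb-bs, -0.18 to 1.23 for Hba-a1 and -0.30 to 0.98 for Hba-a2. In ADI-PEG20 against untreated all 5 stayed below 0, and in the combination against ADI-PEG20 above 0.

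Counts of called genes over the whole table changed more, with 0 of the 5 among them. In the combination against untreated 8 genes were called with a replicate block and 17 without ADI-PEG20 1 and untreated 2. In the combination against chloroquine 15 were called with library quality weights, 72 with only the groups compared, 1 with voom and quality weights and 22 without ADI-PEG20 1 and untreated 2. With a library left out, 0 to 1 genes were called in ADI-PEG20 against untreated (1 without untreated 3) and in the combination against chloroquine (1 without ADI-PEG20 3), and 6 to 10 of the 10 pairs of members passed (10 without untreated 2, 6 with all libraries). The cause of these changes was not tested. The replicate block changed no other call. Same-numbered libraries had r from -0.05 to 0.20 of their deviations, over 0.1 in 9 of 18 pairs, so the numbers were not taken as pairs, which needed every pair to be over 0.1. That 9 of 12 libraries correlated best with their own number is a hint from the data, not the design. The fit with only the groups compared could not be made for the interaction, which uses all 4.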
